A study of Mus musculus with 8 samples.

Results

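Interferon-stimulated genes and the genes that carry the interferon signal were followed in the retina of Lpcat1 knockout (KO) mice. The set holds 49 genes listed by name, of 20014 genes named on the array. The rule that picks their probes uses no difference between genotypes, but the list was drawn up with earlier results of these data known. It comprises 33 targets of type I interferon, 6 targets of type II interferon and 10 signalling members (receptors, kinases and transcription factors upstream of the targets). A probe matched 47 of them. No probe was matched to Mx1 or Mx2. Of the 47, 43 could be tested and 4 were too dim.

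Total RNA of whole retina from 2-week-old C57BL/6 mice was measured in 4 wildtype (WT) and 4 Lpcat1 KO samples, each on 1 single-color array, to ask which transcripts change in the retina when LPCAT1, an enzyme that makes saturated phosphatidylcholine, is missing. The KO allele is a whole-body deletion made on C57BL6/N and crossed to C57BL6/J, and mice homozygous for the rd8 mutation of Crb1 were not used, so that what is measured is a whole-body and not a cell type-specific loss. Neither the labels nor the methods say whether each sample is 1 animal, so p-values measure the spread between these samples, which may be technical in part. A level is the log2 signal minus the 75th percentile of its array, so that 0 equals that percentile, and differences are KO minus WT on this scale.

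Interferons are secreted signals, and cells release those of type I when they sense foreign or misplaced nucleic acid. Type I interferons (IFN-α and IFN-β) act through IFNAR1 and IFNAR2 with the kinases JAK1 and TYK2, and lead a complex with STAT2 and IRF9 to a DNA element called the interferon-stimulated response element (ISRE). Type II interferon (IFN-γ) acts through IFNGR1 and IFNGR2 with JAK1 and JAK2, and leads to the gamma-activated site (GAS). Many targets answer to both, so the classes name the usual main inducer of each gene. In the retina, microglia and Müller glia are known to express interferon-stimulated genes upon injury.

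All arrays shared 1 slide and 1 scan, with the WT arrays in one row and the KO arrays in the other, so that row and genotype cannot be told apart. Between 33117 and 36373 probes were well above background per array, and no spot was saturated (0 spots). The Lpcat1 probe fell by 0.46 in KO (SE 0.04, limma adjusted p = 0.0036) and kept 72.5% of the WT signal, and its place relative to the deletion was not settled. Rod photoreceptor markers ran the other way from the targets described here, with 4 of 12 called lower and 0 higher. In whole tissue, fewer cells of a type and less RNA per cell cannot be told apart.

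The regulatory sequences of the targets are shown first, because the ISRE and the GAS are the elements through which interferon signalling reaches its targets. RefSeq promoter windows (build GRCm38.p6, 250 bases before to 50 after the transcription start) were found for 40 of the 49 members and searched for the ISRE core GAAANNGAAA on both strands (TTTCNNTTTC on the other) and the GAS core TTCNNNGAA, which reads alike on both strands. Overlapping matches were each counted. The following stretches lie upstream of the start, with cores in capitals. The first 3 belong to members called higher in KO, the next 3 to targets with large differences that were not called, and the last 2 to transcription factors with only GAS cores.
Ifit3, chr19:34583348-34583441, plus strand: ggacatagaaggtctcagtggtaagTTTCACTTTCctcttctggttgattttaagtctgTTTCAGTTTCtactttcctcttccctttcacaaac
Gbp2, chr3:142620579-142620638, plus strand: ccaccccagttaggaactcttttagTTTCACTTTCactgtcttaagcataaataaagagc
Isg20, chr7:78913326-78913384, plus strand: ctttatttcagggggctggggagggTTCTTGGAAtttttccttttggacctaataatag
Isg15, chr4:156200850-156200921, minus strand: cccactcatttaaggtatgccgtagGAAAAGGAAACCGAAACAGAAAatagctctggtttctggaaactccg
Oas1a, chr5:120907526-120907648, minus strand: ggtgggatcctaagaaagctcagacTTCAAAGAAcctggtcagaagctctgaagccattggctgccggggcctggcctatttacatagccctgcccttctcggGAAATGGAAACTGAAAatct
Igtp, chr11:58199486-58199555, plus strand: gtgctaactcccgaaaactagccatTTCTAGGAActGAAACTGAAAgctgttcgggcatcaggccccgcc
Irf1, chr11:53769899-53769957, plus strand: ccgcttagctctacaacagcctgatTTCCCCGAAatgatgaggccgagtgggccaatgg
Irf8, chr8:120736162-120736238, plus strand: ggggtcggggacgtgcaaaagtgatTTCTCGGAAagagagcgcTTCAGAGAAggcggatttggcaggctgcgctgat

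Ifit3 carried 2 ISRE cores and Isg15 carried 3 that overlap, whereas Isg20 held only a GAS core and Igtp held both kinds. An ISRE core lay in the windows of 18 of 40 members (45.0%), against 3.99% of 27025 genes, and a GAS core in 14 members (35.0%), against 9.55% of all genes. Some genes have several windows. Counted by window, the ISRE share was 38% of the members' windows and 3.44% of all windows. By class, the ISRE core was found in 13 of 24 type I targets (54.2%), 4 of 6 type II targets (66.7%) and 1 of 10 signalling members. Thus the short ISRE core did not separate type I from type II targets, and neither did the GAS core, found in 8 of 24 and 3 of 6. Signalling members held the GAS core in 3 of 10, a share near that of the type I targets. Of the 5 called members 3 had an ISRE core, as did 11 of the 21 other tested targets with a window (52.4%). For Ifih1 the core lay 33 bases into the transcript, and the Irf7 window held neither core. Such matches describe letters in a window and not bound sites.

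**Figure D1:**
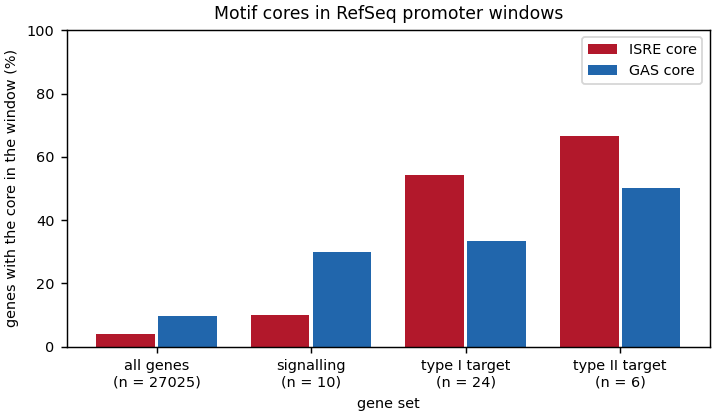
Share of genes (%) with at least 1 ISRE core (red) or GAS core (blue) in a RefSeq promoter window, for all genes and the 3 classes of members, with the number of genes under each pair of bars. All 3 classes stand above all genes for both cores, with 54.2% and 66.7% of type I and type II targets for the ISRE core and 1 of 10 signalling members.

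Nearly all targets in the set had positive differences, whereas the signalling members stayed near 0. Of the 43 tested members 5 rose in KO and 0 fell, where a call needed a limma p below 0.05 after Benjamini-Hochberg adjustment over all tested probes as well as a change of more than 1.2-fold. That is 11.6% of the members, against 1.99% of the 14934 genes tested that were called higher and 1.49% called lower. The members that rose were Ifit3, Gbp2, Irf7, Isg20 and Ifih1. An unadjusted p under 0.05 was reached by 23 members, all higher in KO but Ifngr1. The difference was positive for 37 members and negative for 6, while 42.2% of all genes had a positive difference. In 11 members (25.6%) all 4 KO samples lay above all 4 WT samples, against 8.78% of all genes, and in 0 members did all lie below, against 12.4%. The median difference was 0.26 over the 43 members and -0.02 over all genes.

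**Figure D2:**
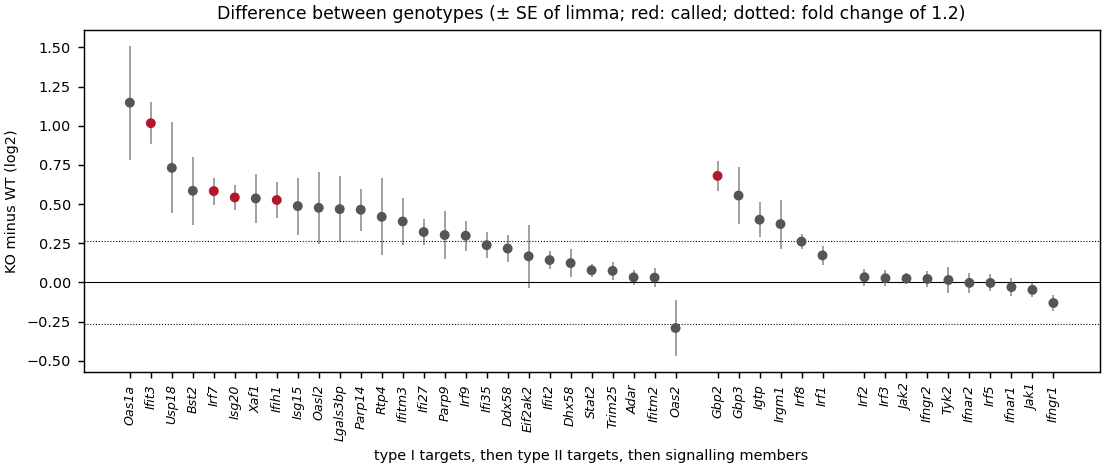
Difference between genotypes (KO minus WT, log2) for the 43 tested members, with the standard error of limma as bars, called members in red and the fold change of 1.2 as dotted lines. Differences reach from -0.29 (Oas2) to 1.15 (Oas1a) among targets, while the signalling members lie between -0.13 and 0.03.

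At the receptors and their kinases no change was called. Ifnar1 and Ifnar2, the chains of the type I receptor, differed by -0.03 (SE 0.06) and -0.00 (SE 0.07). For the type II receptor, Ifngr1 differed by -0.13 (SE 0.05, limma adjusted p = 0.186) and Ifngr2 by 0.02 (SE 0.05). Ifngr1 thus had the largest difference among the signalling members, and its KO samples, at 1.74, 1.63, 1.52 and 1.59, overlapped the WT samples, at 1.72, 1.77, 1.71 and 1.80. The kinases Jak1, Jak2 and Tyk2 differed by -0.05, 0.03 and 0.02. Irf3, which is phosphorylated when nucleic acid sensors fire, differed by 0.03, Irf2, a repressor of interferon targets, by 0.03, and Irf5, a factor of Toll-like receptor signalling, by -0.00. All 10 signalling members overlapped between genotypes, as did most genes. All KO samples lay above all WT samples in 8.78% of all genes and below in 12.4%. Over the signalling members the median difference was 0.01, and limma called 0, with 1 (Ifngr1) at an unadjusted p under 0.05. Over all genes limma called 1.99% higher and 1.49% lower, so 0 calls among 10 genes are near that share. The methods' t-test also called 0 of the signalling members.

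The transcription factors that are themselves targets showed more. Irf7, which amplifies type I interferon production, stood at -1.85, -1.62, -1.57 and -1.86 in WT replicates 1 to 4 and at -1.11, -1.31, -1.11 and -1.04 in KO. All KO samples were above all WT samples and lay close together, with an SD of 0.114 in KO and 0.150 in WT. Irf7 rose by 0.58 (SE 0.09, limma adjusted p = 0.0146), a 1.5-fold change. Irf7 was called without each sample in turn but not without a filter on dim probes (adjusted p = 0.0555) or with the replicate block (0.0598). Irf8, a factor of microglia and other myeloid cells that is placed here with the type II targets, went from -1.52 ± 0.06 to -1.26 ± 0.07 (SD, n = 4). Its difference of 0.261 passed the test (limma adjusted p = 0.0296), yet it stopped just under the 0.263 that a 1.2-fold change needs and was not called. Irf9, the DNA-binding part of the type I complex, went from 0.76 ± 0.11 to 1.05 ± 0.18 without overlap but with a limma adjusted p of 0.106. Stat2, its partner, differed by 0.08 and Irf1, a factor induced early by IFN-γ, by 0.17 (adjusted p = 0.124).

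Among the RNA sensors, Ifih1 (MDA5, which binds long double-stranded RNA) stood at -2.68, -2.80, -2.79 and -2.58 in WT and at -1.87, -2.43, -2.28 and -2.17 in KO. The groups did not overlap, with KO replicate 1 highest. Ifih1 rose by 0.53 (SE 0.11, limma adjusted p = 0.0407), a 1.44-fold change. This call was the least firm of the 5. It was lost without WT replicate 1 (adjusted p = 0.0843), WT replicate 2 (0.109), WT replicate 3 (0.104), WT replicate 4 (0.068), KO replicate 3 (0.0744) or KO replicate 4 (0.0914), and also with no filter on dim probes (0.109) and with the replicate block (0.058). Ddx58 (RIG-I, a sensor of RNA with a 5′ triphosphate) went from -1.40 ± 0.04 to -1.19 ± 0.19 without overlap (difference 0.22, adjusted p = 0.178), and Dhx58 (LGP2), a regulator of both, differed by 0.12.

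Of the 15 antiviral effectors, 11 were tested and 2 rose. Ifit3 had the largest change of all called members. Its WT samples stood at -1.70, -1.86, -1.72 and -1.62 and its KO samples at -0.34, -0.97, -0.90 and -0.64. Every KO sample was above every WT sample, and KO replicate 1 was highest. Ifit3 rose by 1.02 (SE 0.13, limma adjusted p = 0.0104), a 2.02-fold change. It was called without each sample in turn, with an adjusted p of at most 0.0431. Isg20, an RNA exonuclease, stood at -1.88, -1.82, -1.87 and -1.76 in WT and at -1.05, -1.32, -1.41 and -1.39 in KO. The groups were again apart, and Isg20 rose by 0.54 (SE 0.08, limma adjusted p = 0.0147), a 1.46-fold change. Its second probe also rose, by 0.37 (adjusted p = 0.0271). The call of Isg20 was lost without WT replicate 2 (adjusted p = 0.0509), with no filter on dim probes (0.0564) and with the replicate block (0.0572).

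**Figure D3:**
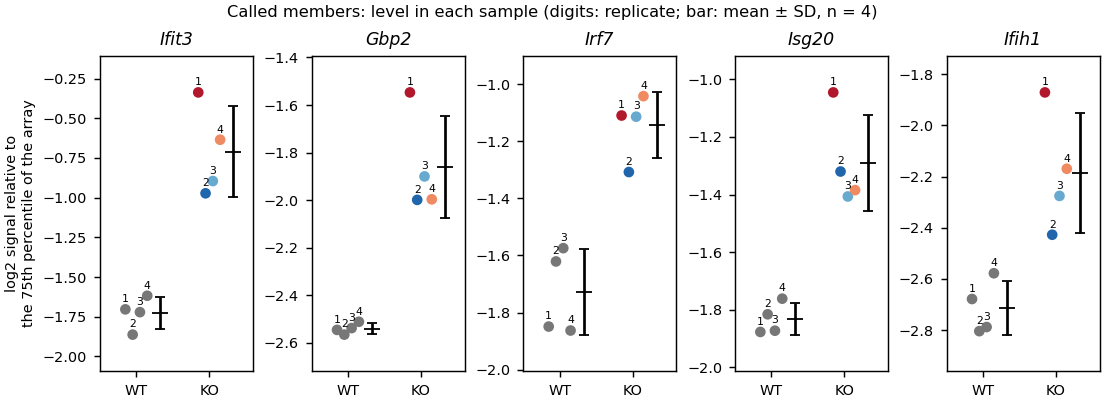
Level of the 5 called members in each sample (log2 scale, 0 being the 75th percentile of the array, axes not starting at 0), with WT in gray, KO in color, the replicate number above each point and the mean ± SD (n = 4) beside each group. In each panel the KO samples lie above the WT samples, and KO replicate 1 is highest for all but Irf7.

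Oas1a, which makes the 2′-5′ oligoadenylate messenger that activates RNase L, had the largest difference of any tested member but was not called. It stood at -3.78, -3.89, -3.54 and -2.69 in WT and at -1.51, -3.03, -2.58 and -2.17 in KO. WT replicate 4 lay above KO replicate 2, so the groups overlapped. Oas1a differed by 1.15 (SE 0.36, limma adjusted p = 0.102). Oasl2, a relative, differed by 0.48 (SE 0.23), and Oas2 was the only type I target with a negative difference, at -0.29 (SE 0.18, adjusted p = 0.372). Bst2 (tetherin, which holds budding virus at the cell surface) stood at -1.02, -0.84, -0.81 and -0.68 in WT and at 0.06, -0.75, -0.56 and 0.25 in KO, where replicates 1 and 4 were far above the other two. Bst2 differed by 0.59 (SE 0.22, adjusted p = 0.150). Ifitm3, a membrane protein that hinders viral entry, differed by 0.39. The remaining effectors, Eif2ak2 (the RNA-activated kinase PKR), Ifit2, Adar (an RNA-editing enzyme) and Ifitm2, differed by 0.03 to 0.17.

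Isg15 (a ubiquitin-like protein attached to others during the response) and Usp18 (the protease that removes it and dampens IFNAR signalling) were not called. Isg15 stood at 0.01, -0.10, 0.02 and 0.11 in WT and at 1.03, 0.08, 0.31 and 0.56 in KO. Only KO replicate 2 fell within the WT range. Isg15 differed by 0.49 (SE 0.18, limma adjusted p = 0.153), and the second Isg15 probe differed by 0.71 (adjusted p = 0.158). Usp18 stood at -2.93, -2.91, -3.02 and -2.66 in WT and at -1.35, -2.86, -2.45 and -1.93 in KO, with KO replicate 2 again in the WT range. Usp18 differed by 0.73 (SE 0.29, adjusted p = 0.175). The ligase Trim25, which acts on RIG-I, differed by 0.07.

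The other 7 tested type I targets all had positive differences, from 0.24 to 0.54, and none was called (0 by limma, with 4 at an unadjusted p under 0.05, and 0 by the methods' t-test). Xaf1, a pro-apoptotic protein, went from -1.54 ± 0.16 to -1.01 ± 0.32 without overlap (difference 0.54, limma adjusted p = 0.0853). Ifi27, a mitochondrial protein, went from 0.95 ± 0.03 to 1.27 ± 0.18, also without overlap (0.32, adjusted p = 0.0657). Parp14, an ADP-ribosyltransferase, differed by 0.46, its relative Parp9 by 0.30, Rtp4 by 0.42 and Ifi35 by 0.24. Lgals3bp, a secreted glycoprotein, stood at 0.82, 0.71, 0.75 and 0.98 in WT and at 1.63, 0.81, 0.97 and 1.73 in KO. As for Bst2, replicates 1 and 4 were the high KO samples. The difference of Lgals3bp was 0.47 (SE 0.21, adjusted p = 0.220).

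All 6 type II targets had positive differences and an unadjusted p under 0.05, and 1 was called. Gbp2, a GTPase that attacks the membranes of intracellular pathogens, stood at -2.55, -2.57, -2.54 and -2.51 in WT and at -1.55, -2.0, -1.90 and -2.0 in KO. The WT samples lay within a narrow band, and every KO sample was above it. Gbp2 rose by 0.68 (SE 0.10, limma adjusted p = 0.0130), a 1.6-fold change, and was called without each sample in turn (adjusted p at most 0.0481). The call was lost with no filter on dim probes (0.0517) and with the replicate number as a block (0.0515). Igtp, an immunity-related GTPase, went from -0.71 ± 0.08 to -0.31 ± 0.23 without overlap (difference 0.40, adjusted p = 0.0721). Gbp3 and Irgm1, of the same families, overlapped between genotypes and differed by 0.55 (adjusted p = 0.115) and 0.37 (adjusted p = 0.195).

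Set side by side, both classes of targets had like differences. The median difference was 0.39 for the 27 tested type I targets and 0.39 for the 6 type II targets. Of the type I targets 4 were called, 26 had a positive difference and 8 were without overlap. Of the type II targets 1 was called, 6 had a positive difference and 3 were without overlap. The difference between the classes was not tested, and with 6 genes the second median is coarse.

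The 4 members too dim to be tested were type I targets. Ifi44 was well above background on 0 WT and 3 KO arrays. It read -6.16, -5.01, -4.98 and -4.97 in WT and -3.99, -4.95, -4.46 and -3.73 in KO, where replicate 2 was hardly above the WT samples. Trim30a was above background on 0 WT and 2 KO arrays. It read -5.40, -5.02, -5.03 and -5.03 in WT and -4.10, -5.58, -5.15 and -3.95 in KO, so that replicates 1 and 4 were above the WT samples, replicate 2 was the lowest of all and replicate 3 was within the WT range. No fold is given for either, since WT replicate 1 would weigh on its size. Ifit1 was above background on 1 WT and 3 KO arrays and Rsad2 (viperin) on 1 and 2, so no fold is given.

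The level of the targets was uneven among the KO samples. Relative to the WT mean, the median type I target stood at 0.66 in KO replicate 1, 0.07 in replicate 2, 0.16 in replicate 3 and 0.46 in replicate 4, and at -0.05, -0.03, -0.02 and 0.10 in the WT samples. The type II targets stood at 0.72, 0.16, 0.27 and 0.45 in KO, in the same order of samples, and the signalling members between -0.01 and 0.00. KO replicate 2 was therefore close to the WT samples and its type I median was below that of WT replicate 4. In 23 of the 27 type I targets (85.2%) KO replicates 1 and 4 were both above KO replicates 2 and 3, against 12.2% of all genes. KO replicates 1 and 4 were each above the highest WT sample in 24 type I targets, replicate 3 in 17 and replicate 2 in 11 (40.7%, against 23.0% of all genes for that sample).

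**Figure D4:**
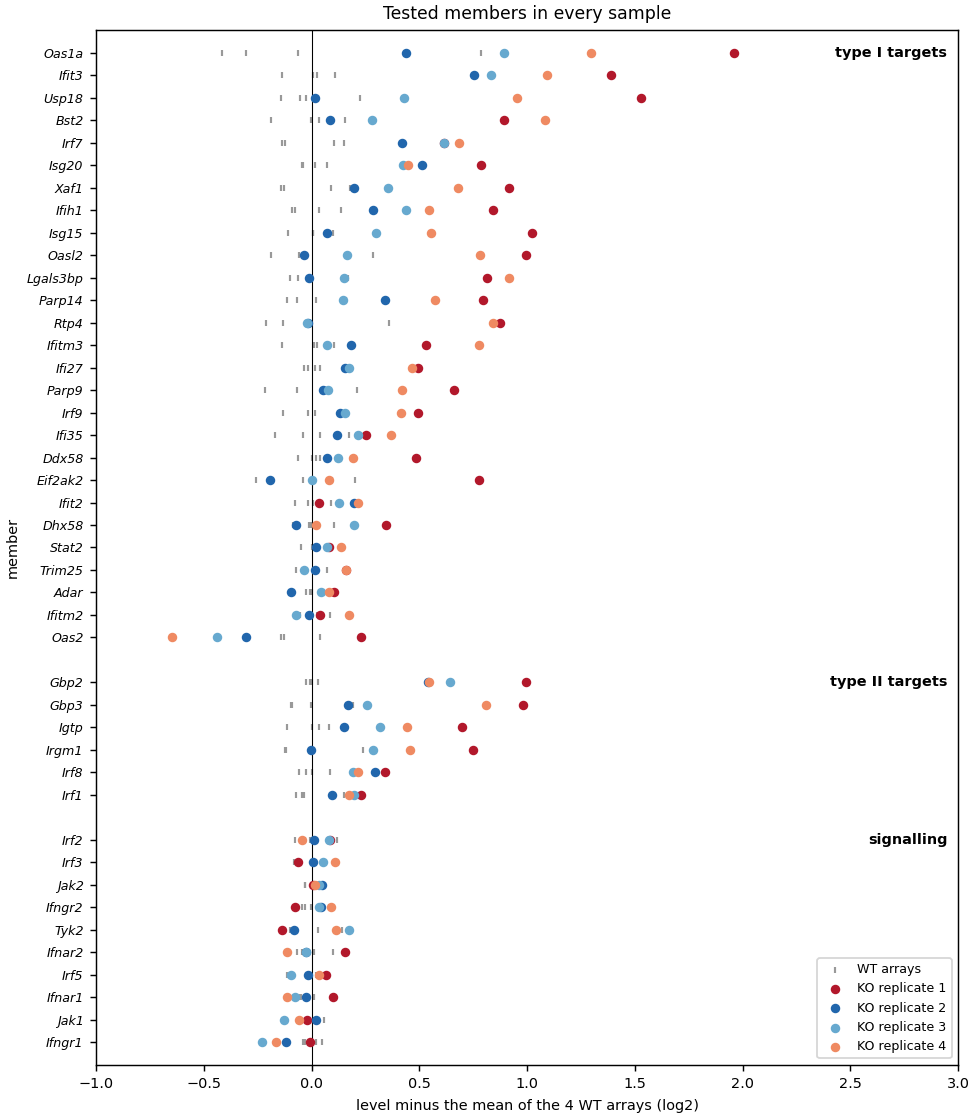
Level of each tested member in each sample minus its mean over the 4 WT arrays (log2), with WT arrays as gray ticks and the 4 KO replicates as colored points, sorted by difference within each class. KO replicates 1 (red) and 4 (orange) lie above replicates 2 and 3 (blues) in most type I targets, whereas in the signalling members all samples stay close to 0.

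The same unevenness showed in the spread. The SD within KO was larger than that within WT in 25 of 27 type I targets (92.6%), against 56.1% of all genes. The median SD of the type I targets was 0.28 in KO and 0.11 in WT, and over all genes it was 0.0730 and 0.0670. Most large differences therefore came with large standard errors, and in the 5 called members KO replicates 2 and 3 were above WT as well. WT samples were not fully alike either, and WT replicate 4 was the highest WT sample in 20 of 27 type I targets (74.1%, against 34.0% of all genes). With KO replicates 1 and 4 both left out, which was chosen after seeing the data, the median type I difference was 0.14 and 3 members were called (Gbp2, Ifit3 and Isg20).

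Markers of other cells were examined beside these patterns. Of 17 measured microglia and macrophage markers 7 rose and 14 were without overlap, among them Tyrobp, a signalling adaptor of myeloid receptors, by 0.65 (SE 0.06, limma adjusted p = 0.00343) and C1qc, a subunit of complement C1q, by 0.57 (SE 0.06). The summed signal of the list was 129 to 176 times the 75th percentile in WT and 161 to 194 times in KO, of which 72.1% to 76.1% came from the Siglech probe. Without Siglech it was 35.6 to 43.0 in WT and 40.2 to 46.2 in KO. The median microglia marker stood at 0.31, 0.35, 0.28 and 0.24 in KO replicates 1 to 4, so it was about level across the KO samples where the targets were not. By this median KO replicate 2, lowest for the type I targets, was highest. By the summed signal the order differed, with 194, 175, 168 and 161 in KO replicates 1 to 4, so that replicate 1 was highest for the sum as it was for the targets. In WT replicates 1 to 4 the sum was 176, 152, 131 and 129, where replicate 4, highest for the type I targets, was lowest. Microglia are known to express many members, Irf8 among them, and the part of these cells in the difference between genotypes was not tested.

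Müller glia markers were also higher in KO. Of 10 tested 3 rose, Kcnj10, Clu and Apoe, and 8 were without overlap, with a median difference of 0.18. Their summed signal was 352 to 371 in WT and 419 to 428 in KO, and the median marker stood at 0.16, 0.19, 0.21 and 0.21 in KO replicates 1 to 4. The part of these cells was not tested.

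Of 12 blood leukocyte markers 5 were tested, with 0 called by limma, 1 at an unadjusted p under 0.05, and their signals summed to 1.57 to 2.04 (WT) and 1.70 to 2.05 (KO). The defining markers Ccr2 (inflammatory monocytes), Ms4a1 (B cells) and S100a8 (neutrophils) were not well above background on any array. The 5 measured red cell markers stood at 0.39, 0.10, -0.11 and -0.09 in KO replicates 1 to 4 (summed signal 38.5 to 55.4 in KO and 35.6 to 47.5 in WT), so that KO replicate 1 was high for them but replicate 4 was not. In WT replicates 1 to 4 they stood at -0.24, -0.04, 0.05 and 0.22, the same order of samples as the type I targets. Limma called 0 of them, with 0 at an unadjusted p under 0.05, and the part of blood was not tested. The 8 endothelial markers had a median difference of -0.14. The number of probes well above background was 35620, 33117, 33500 and 34873 in KO replicates 1 to 4, which is the same order of samples as for the type I targets. In WT it was 36373, 35423, 36262 and 35033, where replicate 4, highest for the type I targets, had the fewest and replicate 1, lowest for them, the most.

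**Figure D5:**
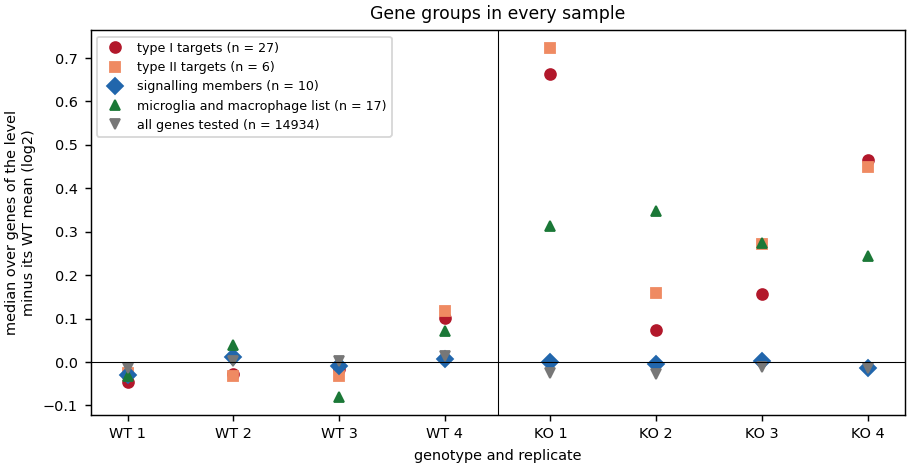
Median over genes of the level minus its WT mean (log2) in each sample, for the type I targets, type II targets, signalling members, microglia and macrophage markers and all genes tested. Both classes of targets vary together among the KO samples (0.66 and 0.72 in replicate 1, 0.07 and 0.16 in replicate 2), while the microglia markers stay between 0.24 and 0.35.

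Other genes of the pathway were then counted. Of 21 interferon genes 9 could be tested, with a median difference of -0.27 and 6 of 9 negative. Ifna5 (-0.46), Ifna11 (-0.43) and Ifna13 (-0.45) passed the filter only through WT, so their negative sign was favored in advance. The 6 above background on all arrays went both ways. They differed by 0.13 (Ifna1), -0.10 (Ifna7), -0.31 (Ifna12), 0.47 (Ifna14), -0.27 (Ifnab) and 0.08 (Ifnl3). By limma 0 rose, and the 3 at an unadjusted p under 0.05 (Ifna11, Ifna12 and Ifnab) were all lower in KO. Ifnb1, the gene of IFN-β, was not well above background on any array, and Ifng, the gene of IFN-γ, was on 1 KO array. Ifna11 was called lower, but it entered the test only through WT and was above background on 2 KO arrays, so the size of its difference is uncertain. The Ifna genes are near-identical copies that probes may not tell apart. Of 17 tested other signalling genes 1 rose, Ptpn6 (SHP-1, a phosphatase of blood and myeloid cells) by 0.31 (SE 0.07, adjusted p = 0.0387), and 0 fell.

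Of 24 tested further type I targets 2 rose, 0 fell and the median difference was 0.11, with 20 positive and 4 negative. Ifit3b rose by 1.14 (SE 0.15, limma adjusted p = 0.00994), and since it is a near-identical copy of Ifit3 the probes of both may read both transcripts. Nmi, an interferon-induced protein, rose by 0.31 (SE 0.07, adjusted p = 0.0457). Cxcl10, a chemokine induced by both types of interferon, was above background on 0 WT and 2 KO arrays. Of 14 further type II targets 1 rose and 0 fell, with a median difference of 0.10. Of these 8 had a positive and 6 a negative difference, so the uniform sign of the 6 listed type II targets did not hold here. The gene called was Gbp7, a relative of Gbp2, at -3.28, -3.20, -3.30 and -3.17 in WT and -2.53, -2.81, -2.90 and -2.61 in KO. Its difference was 0.53 (SE 0.08, limma adjusted p = 0.0185). Among dim genes of these lists Gbp4 was above background on 0 WT and 3 KO arrays, whereas Tgtp1 and Slfn2 were on 4 WT and 1 KO arrays, Zbp1 on 3 and 2, Slfn8 on 2 and 1 and Oas3 on 1 and 0.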

How the data were processed

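The authors hybridized Cy3-labeled total RNA of whole retina to the SurePrint G3 Mouse GE array and quantified it with Agilent Feature Extraction 10.7.1.1. Background-subtracted spot intensity on a linear scale was taken from the deposited scanner files. The authors' table of the series holds 75th percentile-shifted values on a log2 scale, which were off from the levels used here by 1 constant per array (SD at most 3.01e-07) and served as an alternative. Here log2 of the processed signal minus the 75th percentile over 59305 non-control spots of each array was used, without outlier spots (86 to 147 per array) and 3671 control spots. Probes were named by accession through RefSeq (47.4% of 55681). Each gene took its probe with the highest mean over 8 arrays. Further tested probes of a member had differences of the same sign. Probes (33975) that were well above background in every sample of 1 genotype or both were tested with limma 3.58.1 in R 4.3.3, with Benjamini-Hochberg adjustment over them. The fit was tested on simulated data. Members and lists were chosen with earlier results of these data known. The text gives called members by sample, members without overlap by means and others by difference. Ifngr1, Oas1a, Bst2, Isg15, Usp18 and Lgals3bp were chosen for values by sample after these were seen. Among the other genes those called are named, and Cxcl10, Gbp4, Tgtp1, Slfn2, Zbp1, Slfn8, Oas3, Ifnb1, Ifng and markers not well above background were named after their values were seen. Depth has no counterpart on arrays, and the number of arrays (4 per genotype) limits the precision. Alternatives were other scalings, background correction, filters, tests, thresholds, a replicate block, array weights, the authors' values and leaving out arrays. The normexp correction used median spot signals. Values of 1 gene of the lists are not reported here.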

Additional observations from a re-analysis of the deposited data

Results flagged for a closer look

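Irf1 in WT replicate 4 stood at 0.0857, while the other 3 WT samples lay between -0.14 and -0.10. The gap to its nearest neighbor was 0.836 of the whole range of the group, above the critical value of Dixon's test. Of the 86 groups of 4 samples examined this was the only one so marked, and chance marks about 1 in 20 such groups.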

How the results depend on the processing

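Across 26 alternatives, 1 to 21 members were called higher and 0 or 1 lower, and the difference of no called member changed sign. Ifit3 was called in all 26. The count of 5 members called higher went to 1 (Ifit3) with no filter on dim probes, where more probes enter the adjustment, to 8 with trend and robust limma (adding Ifi27, Igtp and Parp14, where the cause was not tested), to 2 (Gbp2 and Ifit3) at a fold change over 1.5, and to 21, with 1 lower (Oas2), at an adjusted p under 0.5. Leaving out each sample in turn gave 3 to 5 members called higher, the fewest without WT replicate 2 (Gbp2, Ifit3 and Irf7). It gave a median difference of 0.27 (without KO replicate 1) to 0.50 (without KO replicate 2) for type I targets, 0.27 to 0.49 for type II targets and -0.01 to 0.02 for signalling members. Without KO replicates 1 and 4, chosen after seeing the data and with fewer samples, 3 members were called, the type I median was 0.14 and the type II median 0.22, and Irf7 had an adjusted p of 0.0966. The signalling median of 0.01 was 0.0338 with cyclic loess, 0.0234 with a median shift and 0.0261 with the 75th percentile over probes detected on all arrays, and the median of all probes moved with it, from -0.0371 to -0.00286, -0.0205 and -0.0179. Irf8 was called with quantile, cyclic loess and median scaling, that 75th percentile, array weights, the authors' values, no minimum fold change and without WT replicate 1. Normexp added Gbp3, Ifi27 and Igtp and lost Ifih1 (adjusted p = 0.0514). The methods' t-test with Benjamini-Hochberg adjustment called 4, all but Ifih1.

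With the replicate number as a block 1 member was called (Ifit3), and Gbp2, Isg20, Ifih1 and Irf7 had adjusted p from 0.0515 to 0.0598. The numbers were not taken as pairs, since the deviations of same-numbered samples correlated at 0.249, 0.0687, 0.037 and 0.112 for replicates 1 to 4, not all over 0.1. Every KO sample correlated best with the WT sample of its own number, and so did every WT sample with its KO number except WT replicate 3.

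The limits are the 4 samples per genotype, the slide row that goes with the genotype, and dim signals near background, such as those of Ifi44 and Trim30a.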
